A study of Mus musculus with 9 samples.

Results

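Messenger RNAs of zinc finger proteins whose symbol is Zfp followed by a digit were followed through 9 HITS-CLIP libraries of mouse brain polyribosomes. HITS-CLIP crosslinks proteins to RNA with ultraviolet light, pulls 1 protein down with an antibody and sequences the short RNA pieces attached to it, here called tags. The authors' gene table holds 306 such lines (300 symbols) among 30999, and 22 of the 306 carry no RefSeq accession. A line was kept when its RefSeq transcript had at least 5 tags summed over the 9 lists of transcript tags, which left 100 mRNAs. Of the other lines, 111 had 1 to 4 tags and 95 had 0. The members were thus selected on their summed FMRP and Hu tags, which are given here only as a description. The median was 11 tags, and the largest sum was 162 tags on Zfp238. Just inside the limit stood 9 mRNAs with 5 tags (26 FMRP and 19 Hu tags in all), and just outside stood 18 with 4 tags (46 FMRP and 26 Hu tags).

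All libraries came from cortex and cerebellum, dissected free of white matter and handled in cycloheximide, of FVB mice described as pooled littermates. FMRP, the RNA-binding protein missing in fragile X syndrome, was precipitated with the monoclonal antibodies 7G1-1 and 2F5 at P14, P15 and P25 (3 libraries) and with the polyclonal antibody ab17722 at P14 and P25 (2 libraries). These 5 libraries followed Protocol 1 (dissociation in 1% SDS, 454 sequencing), for which the labels name male wild type mice and Fmr1Tm1Cgr littermates, without a genotype for each library. Protocol 2 (2% SDS, Illumina sequencing) gave 2 FMRP libraries with ab17722, at P11 and P13, and 2 libraries of the neuronal Hu proteins with a human antiserum. The P11 lysate and the P13 lysate were each split between FMRP and Hu. Libraries of 1 group differ in age, and nothing separates biological from technical spread. The p-values below therefore cover library-to-library spread alone.

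Most Zfp proteins carry C2H2 zinc fingers, short loops held by a zinc ion, several of which in a row read a DNA sequence. Many of them also carry a KRAB domain, which recruits the corepressor Trim28 and through it silencing chromatin, above all at transposable elements. Some members of this naming family do other work, as ubiquitin ligases or RNA-binding proteins. FMRP is known for lying along the coding sequence of brain mRNAs on polyribosomes, and the Hu proteins for binding U-rich stretches of 3' untranslated regions.

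Transcript tags numbered 4397 to 7713 in the 454 libraries and 25873 to 49847 in the Illumina libraries. A transcript without a tag could still hold up to 3 tags, which in CPM (tags scaled to the library's total) is 682 for the shallowest library and 60.2 for the deepest. The floor and the intervals cover counting error only. Neuron marker mRNAs took 0.384% to 1.37% of the tags of a library and all 9 of them had tags. Of the 5 microglia markers Csf1r alone had a tag, and Aif1, C1qa, C1qb and Cx3cr1 were at 0. Oligodendrocyte markers took 0.0411% to 0.238% of the tags in FMRP libraries, and 0.533% and 1.18% in the P11 and P13 Hu libraries. Astrocyte markers went the other way, with 0.0533% to 0.194% in FMRP libraries and 0.0077% and 0.0241% in the P11 and P13 Hu libraries. The part of these markers in the results below was not tested.

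The 100 Zfp mRNAs together took a larger share of the Hu libraries than of any FMRP library. Their share was 1.58% of the tags of the P11 Hu library (410 tags, 95% Wilson interval 1.44% to 1.74%) and 1.26% of the P13 Hu library (626 tags, 1.16% to 1.36%). In the FMRP libraries from the same lysates it was 0.866% at P11 (232 tags, 0.762% to 0.984%) and 0.867% at P13 (382 tags, 0.784% to 0.958%). The 5 FMRP libraries on 454 ranged from 0.739% (P15) to 1.08% (P25 with the polyclonal antibody). These shares hold for the 100 members, which were selected on the same tags. The Zfp lines left out went the other way on Illumina, with 103 FMRP tags and 62 Hu tags.

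**Figure D1:**
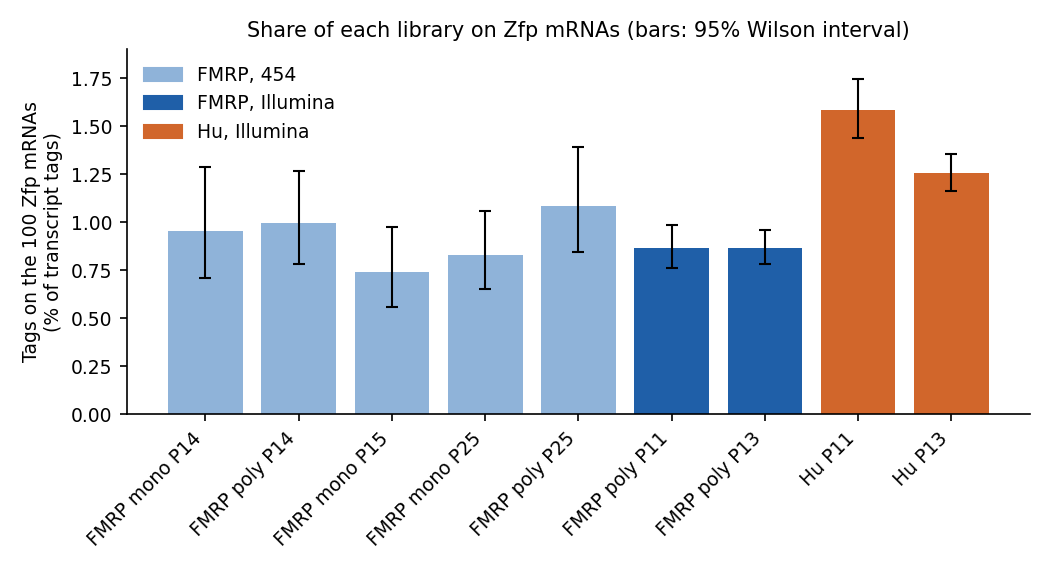
Share of the transcript tags of each library (y axis, percent) that lies on the 100 Zfp mRNAs, for 5 FMRP libraries on 454, 2 FMRP libraries on Illumina and 2 Hu libraries on Illumina (x axis). Error bars are 95% Wilson intervals, and the Hu libraries, at 1.58% and 1.26%, stand above the 0.739% to 1.08% of the 7 FMRP libraries.

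Between the Illumina libraries, both FMRP libraries stood above both Hu libraries in CPM for 29 of the 100 Zfp mRNAs (29%), and both Hu libraries stood above both FMRP libraries for 36 (36%). Over all 5867 transcripts with at least 5 tags these shares were 32.4% and 30.7%, so neither Zfp share is far from the background. The other 35 Zfp mRNAs overlapped. In the transcript lists, no Hu tag was found on 19 Zfp mRNAs, and no Illumina FMRP tag on 11.

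FMRP was compared with Hu by edgeR's quasi-likelihood test on the tags of the 4 Illumina libraries, with Benjamini-Hochberg adjustment over all genes tested. Of 1015 genes deep enough to test, 61% passed an adjusted p of 0.05, with 33.7% higher in FMRP and 27.3% higher in Hu. Only 10 Zfp mRNAs were deep enough, and 8 of them passed, 2 higher in FMRP and 6 higher in Hu. A gene can pass the depth filter through the protein where it is high, so these counts say nothing of the other 90 Zfp mRNAs. With each library scaled by its own total, 1 Zfp mRNA was higher in FMRP and 7 were higher in Hu.

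Zfp106, an RNA-binding zinc finger protein needed to keep motor neurons and muscle intact, was the Zfp mRNA with most FMRP tags. It lies on chromosome 2 (mm9, 120332565 to 120389567 in the authors' table). Its tags numbered 20 at P11 and 45 at P13 with FMRP, and 6 and 17 with Hu. That is 746 and 1021 CPM with FMRP against 232 and 341 CPM with Hu, with no overlap. The log2 fold change of Zfp106 was 1.88 ± 0.68 (SE, n = 2 and 2, edgeR adjusted p = 0.0366). The call ended without the P11 Hu library (edgeR adjusted p = 0.291), without the P13 FMRP library (0.0845) and with DESeq2's test (0.0537). Over the alternatives the log2 fold change of Zfp106 ran from 1.44 to 2.54.

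Zfp644, which works with the histone methyltransferases G9a and GLP, was the other Zfp mRNA higher in FMRP (chromosome 5, mm9, 107045759 to 107125849). It had 12 and 15 tags with FMRP at P11 and P13, and 4 and 7 with Hu, or 448 and 340 CPM against 155 and 140 CPM. The groups did not overlap, and the log2 fold change of Zfp644 was 1.65 ± 0.59 (SE, edgeR adjusted p = 0.0344). With the lysate as a block, which pairs the FMRP and Hu libraries of each age, the adjusted p of Zfp644 was 0.101. Leaving out any 1 of the 4 libraries also took it past 0.05, to between 0.0905 and 0.306, as did library totals (0.0575), genomic tags (0.187) and DESeq2's test (0.119). All 27 FMRP tags of Zfp644 lay in the 2 Illumina libraries.

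Several Zfp mRNAs with many FMRP tags did not pass the depth filter, and their values are given as counts. Zfp536, a repressor of neuronal differentiation, had 11 and 5 FMRP tags at P11 and P13 and 0 Hu tags, and 10 more FMRP tags in 4 of the 5 libraries on 454. Against the 3 transcript tags that a count of 0 allows over both Hu libraries, its level was at least 5.70-fold higher in FMRP. Zfp318, a nuclear protein known from immunoglobulin D splicing in B cells, had 8 and 10 FMRP tags and 0 Hu tags, or at least 6.41-fold higher in FMRP. Zfp142 had 3 and 8 FMRP tags and 0 Hu tags, or at least 3.92-fold higher. These minimum folds hold for transcript tags alone, since the genomic lists did hold Hu tags within the bounds of all of these genes. There, Zfp536 had 31 FMRP tags over all 7 libraries and 5 Hu tags, Zfp318 had 21 and 2, and Zfp142 had 21 and 2. When every gene with a tag was tested, without a depth filter, Zfp536 and Zfp318 passed (edgeR adjusted p = 0.0329 and 0.0252) and Zfp106 and Zfp644 did not (0.263 and 0.454).

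Zfp294, now called Ltn1, encodes Listerin, the ubiquitin ligase that marks unfinished proteins on stalled ribosomes. It had 6 and 20 FMRP tags at P11 and P13 against 1 and 3 Hu tags, a ratio of 6.94 with an exact 95% counting interval of 2.41 to 27.4. Zfp532, a partner of Zfp592 and Zfp687 in a chromatin-bound zinc finger complex, had 4 and 11 FMRP tags against 1 and 1 Hu tags, a ratio of 8.01 (1.86 to 72.2). Both ratios rest on the transcript lists. In the genomic lists, the bounds of Zfp532 held 27 FMRP tags over all 7 libraries and 22 Hu tags, and those of Zfp294 held 29 and 8. Looked up after their values were seen, Zfp592 had 12 FMRP tags over all 7 libraries and 1 Hu tag, and Zfp687 had 14 and 0. Zfp598, the ubiquitin ligase that senses collided ribosomes, and Zfp804a, known from genetic studies of schizophrenia, were looked up in the same way. Each had 11 FMRP tags over all 7 libraries and 0 Hu tags in the transcript lists. In the genomic lists, the bounds of Zfp804a held 9 FMRP tags and 5 Hu tags, and those of Zfp598 held 11 and 0. The FMRP tags of these mRNAs were few, and the 3 tags of Zfp598 on Illumina are no more than the floor.

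Zfp462, a large vertebrate protein tied to chromatin and neural development, and Zfp704 were bound by both proteins without a clear difference. Zfp462 had 5 and 18 FMRP tags on Illumina and 5 and 10 Hu tags, a ratio of 1.64 (0.819 to 3.38), and it was 1 of 4 Zfp mRNAs with a tag in all 7 FMRP libraries of the authors' table. Zfp704 had 16 and 14 FMRP tags and 11 and 15 Hu tags. The groups of Zfp704 overlapped, and its log2 fold change of 0.57 ± 0.67 (SE) did not pass (edgeR adjusted p = 0.471).

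**Figure D2:**
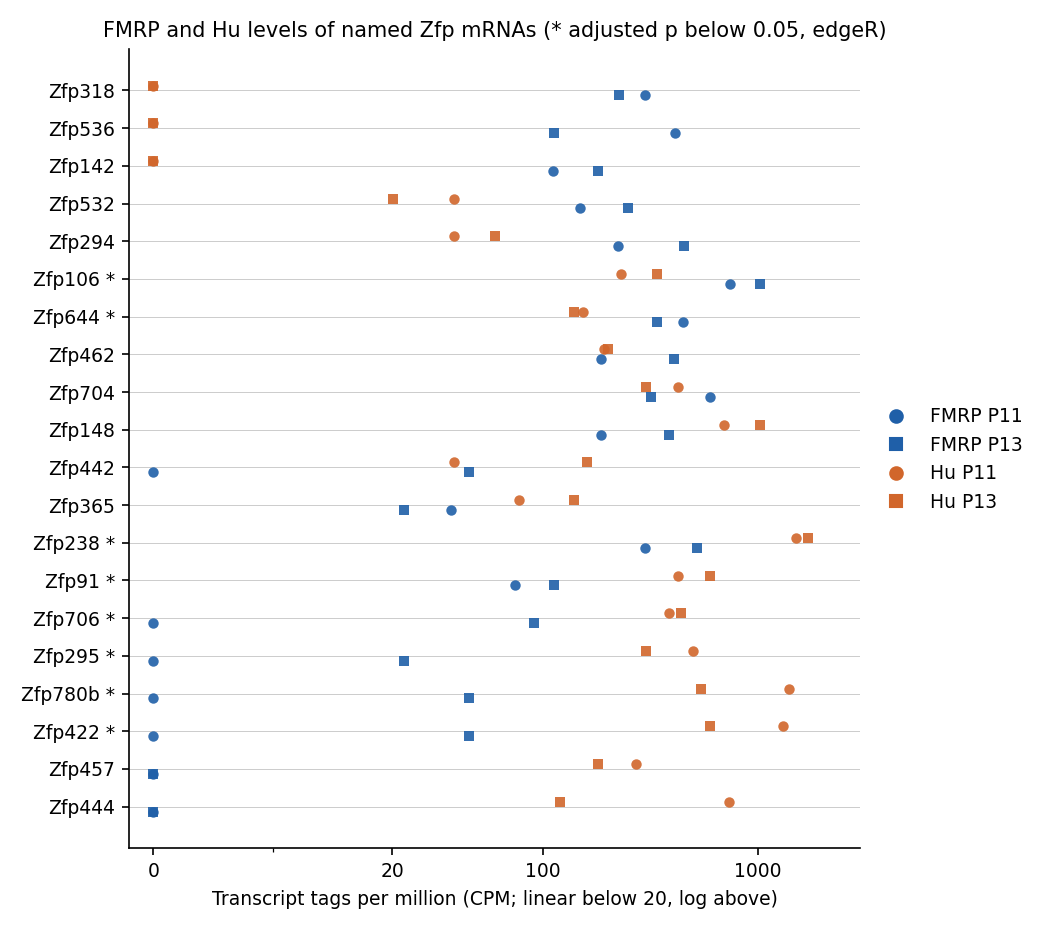
Levels of 20 named Zfp mRNAs in the 4 Illumina libraries, as CPM of transcript tags (x axis, linear below 20 CPM and logarithmic above). Circles are P11 and squares P13, blue is FMRP and orange Hu, and an asterisk marks an edgeR adjusted p below 0.05. Rows run from Zfp444, with 0 FMRP tags, up to Zfp318, with 0 Hu tags.

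Zfp238, now called Zbtb18, a repressor needed for the formation of cortical neurons, had the most tags of all and was higher in Hu (chromosome 1, mm9, 179375951 to 179380897). It had 39 and 85 Hu tags at P11 and P13 against 8 and 23 FMRP tags, or 1507 and 1705 CPM against 299 and 522 CPM. The groups did not overlap, and the log2 fold change of FMRP over Hu for Zfp238 was -1.63 ± 0.63 (SE, edgeR adjusted p = 0.0466). The median Hu tag of Zfp238 lay at nt 4414 of 5297, and the densest 100-nt window held 25.8% of its Hu tags. The call ended without the P11 FMRP library, where the log2 fold change was -0.87 (edgeR adjusted p = 0.431), and without the P11 Hu library (0.113). It also ended with DESeq2's test (0.129), with genomic tags (0.0765) and without the depth filter (0.210).

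Zfp91, a ubiquitin ligase of noncanonical NF-kappa-B signalling, lies on chromosome 19 (mm9, 12840496 to 12870612). It had 11 and 30 Hu tags at P11 and P13 and 2 and 5 FMRP tags, or 425 and 602 CPM against 74.6 and 113 CPM. The groups did not overlap, and the log2 fold change of Zfp91 was -2.10 ± 0.68 (SE, edgeR adjusted p = 0.0246). Leaving out any 1 of the 4 libraries took the adjusted p of Zfp91 past 0.05, to between 0.0692 and 0.441. DESeq2's test (0.111) and dropping the depth filter (0.174) also ended the call, and the log2 fold change ran from -2.53 to -1.43. The authors' table held more FMRP tags of Zfp91 than the transcript lists, with 5 and 9 at P11 and P13. Genomic tags were 5 and 9 with FMRP and 13 and 30 with Hu. On these the log2 fold change was -1.50 ± 0.63 (SE, edgeR adjusted p = 0.0418).

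Zfp706, a very short zinc finger protein with 231 nt of coding sequence in a 4417-nt transcript, lies on chromosome 15 (mm9, 36926781 to 36937157). It had 10 and 22 Hu tags and 0 and 4 FMRP tags. Both Hu libraries, at 387 and 441 CPM, stood above the FMRP libraries, at 0 and 90.8 CPM. The log2 fold change of Zfp706 was -2.55 ± 0.78 (SE, edgeR adjusted p = 0.0196). The call ended without the P11 FMRP library (log2 -1.42, edgeR adjusted p = 0.295) and without the P11 Hu library (0.0925), and without the P13 Hu library Zfp706 was too shallow to test. It also ended with DESeq2's test (0.0833) and without the depth filter (0.133).

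Zfp148, which binds GC-rich promoter elements, had 18 and 51 Hu tags and 5 and 17 FMRP tags, or 696 and 1023 CPM against 187 and 386 CPM. Its groups did not overlap, but the log2 fold change of -1.24 ± 0.71 (SE) did not pass (edgeR adjusted p = 0.148). With genomic tags within the gene bounds in place of transcript tags, Zfp148 passed (-1.63, adjusted p = 0.0340), and with library totals as the scale it also passed (0.0461).

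The strongest differences towards Hu came from Zfp mRNAs whose Hu tags piled up in 1 short stretch. None of the piled-up tags was found inside the gene named in the lists of genomic tags, and whether they come from these genes was not tested. Zfp780b, a KRAB-type zinc finger protein (chromosome 7, mm9, 28744818 to 28764176), had 36 and 27 Hu tags at P11 and P13 and 0 and 2 FMRP tags. Of its 63 Hu tags, 61 had their middle in 1 window of 100 nt, spanning nt 4069 to 4146 of the 6176-nt transcript, with 35 from P11 and 26 from P13. These 61 tags had 23 different start positions and 24 different pairs of library and random barcode. The level of Zfp780b was 1391 and 542 CPM with Hu against 0 and 45.4 CPM with FMRP, and its log2 fold change was -4.64 ± 1.07 (SE, edgeR adjusted p = 0.00592). From the counts, it was 29.5-fold lower in FMRP, with an exact counting interval of 7.83 to 249.

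Zfp422, a C2H2 zinc finger protein (chromosome 6, mm9, 116574033 to 116578995), showed the same form. It had 34 and 30 Hu tags at P11 and P13 and 0 and 2 FMRP tags, or 1314 and 602 CPM against 0 and 45.4 CPM. Of the 64 Hu tags, 56 (87.5%) lay in the window from nt 2796 to 2910 of the 3603-nt transcript, at 22 start positions, and none of its FMRP tags did. The log2 fold change of Zfp422 was -4.64 ± 1.05 (SE, edgeR adjusted p = 0.00521). Zfp422 and Zfp780b passed in each of the 10 alternatives in which they were deep enough to test, the 4 that left out 1 library among them. Their size was less firm, since without the P11 FMRP library the log2 fold change was -3.54 for Zfp422 and -3.55 for Zfp780b, and without the P13 FMRP library, which held all their FMRP tags, -7.89 for both. Neither was deep enough when genomic tags were counted or when all 7 FMRP libraries were used.

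Zfp295, now called Zbtb21 (chromosome 16, mm9, 98168598 to 98183786), had 13 and 15 Hu tags and 0 and 1 FMRP tags. Its level was 502 and 301 CPM with Hu against 0 and 22.7 CPM with FMRP. Of its 28 Hu tags, 21 (75%) lay between nt 4694 and 4776 of 10092 nt. The log2 fold change of Zfp295 was -4.19 ± 0.88 (SE, edgeR adjusted p = 0.00403). The call ended without the P11 FMRP library (log2 -3.23, edgeR adjusted p = 0.0556) and without the P11 Hu library (0.127), and without the P13 Hu library Zfp295 was too shallow to test.

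Counting tags of all 9 libraries together, 5 of the 100 Zfp mRNAs had at least 90% of their tags in 1 window of 100 nt, or 5%. Among all 5867 transcripts with at least 5 tags this share was 5.23%. Of the 60 Zfp mRNAs with at least 10 tags 4 did so, against 4.45% of all transcripts with that many: Zfp780b (95.4% of 65 tags), Zfp444 (100% of 25), Zfp457 (93.8% of 16) and Zfp442 (100% of 11). The fifth, Zfp446, had only 5 tags. Zfp444 had 19 Hu tags at P11 and 6 at P13 and 0 FMRP tags, so it was at least 7.80-fold lower in FMRP. Zfp457, with 7 and 9 Hu tags and 0 FMRP tags, was at least 4.99-fold lower. Zfp442 had 1 and 8 Hu tags, 2 FMRP tags at P13 and 0 elsewhere, and its FMRP tags lay in the same window as its Hu tags.

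A limit of 70% in 1 window, chosen after the values were seen, took in 12 of the 33 Zfp mRNAs with at least 10 Hu tags (36.4%), against 22.4% of the 1837 transcripts with that many. They were Zfp422, Zfp780b, Zfp710, Zfp295, Zfp317, Zfp444, Zfp395, Zfp169, Zfp192, Zfp457, Zfp187 and Zfp563. For FMRP the picture differed. None of the 30 Zfp mRNAs with at least 10 FMRP tags reached 70%, against 1.12% of 2319 transcripts, and their median was 19.1%, against a median of 53.3% over the 33 for Hu. The nearest was Zfp746, looked up for this value, with 66.7% of 15 FMRP tags in 1 window, 10 of them from the monoclonal P14 library.

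**Figure D3:**
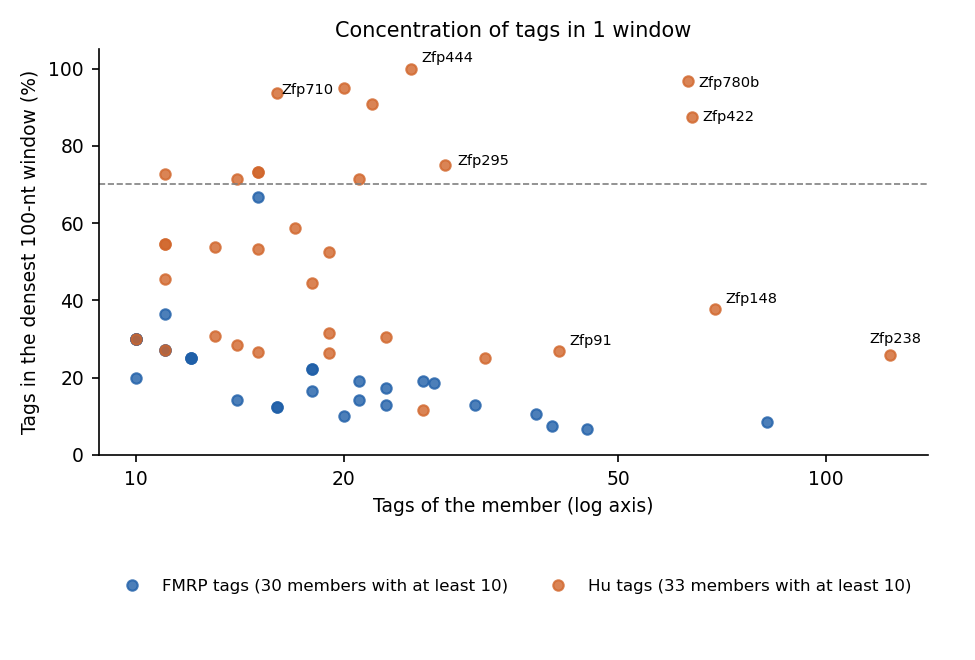
Percent of a Zfp mRNA's tags whose middle lies in its densest window of 100 nt (y axis) against its number of tags (x axis, logarithmic), for 30 Zfp mRNAs with at least 10 FMRP tags (blue) and 33 with at least 10 Hu tags (orange). The dashed line marks 70%, above which lie 12 orange points and no blue point.

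The piled-up tags were rarely found at the gene in the lists of genomic tags. Of the 272 Hu tags in the windows of the 12 Zfp mRNAs, 13 had the same read in the genomic list of their library and 0 of these lay inside the gene named. In the 7 tested Zfp mRNAs without such a pile-up, 36 of the 90 Hu tags of the densest windows were in the genomic list, all 36 inside the gene. In Zfp148 alone this was 19 of 26. Over all transcripts with at least 10 Hu tags, 16.8% of 9383 tags on piled-up transcripts and 36.1% of 50008 tags on the others were in the genomic lists. These shares count every Hu tag of a transcript, inside or outside its densest window, and a place anywhere on the genome. Counted in that way, it was 8.6% of the 314 Hu tags on the 12 Zfp mRNAs. For the other 21 Zfp mRNAs with at least 10 Hu tags it was 30.5% of 531. Between the bounds of Zfp780b the genomic lists held 0 Hu tags, against 7 for Zfp422, 5 for Zfp295 and 1 for Zfp444.

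The 12 piled-up Zfp mRNAs held 314 of the 1036 Hu tags on Zfp mRNAs (30.3%). That is 0.653% of the P11 Hu library and 0.291% of the P13 Hu library. Without them the Zfp share was 0.931% and 0.965% in the Hu libraries and 0.825% and 0.830% in the FMRP libraries of the same lysates. The 12 were picked for their Hu tags, so leaving them out lowers the Hu share by construction. These shares are a description, and the part of the 12 in the Hu excess was not tested. Zfp710 was held by both proteins, and its 16 FMRP tags were spread over the transcript, with 12.5% in the densest window against 95% of its 20 Hu tags.

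Along the transcript, FMRP tags on Zfp mRNAs lay towards the start and Hu tags towards the end. The median position of the tag middles, as a percent of transcript length, was 31.02% to 48.0% in the 7 FMRP libraries and 69.7% and 70.7% in the P11 and P13 Hu libraries. The stretch past 75% of the transcript length held 3.39% to 13.8% of the FMRP tags and 42.2% and 40.3% of the Hu tags. On all transcripts the medians were 33.4% to 38.6% for FMRP and 61.2% and 61.7% for Hu, and the stretch past 75% held 30.9% and 30.7% of Hu tags. Hu tags on Zfp mRNAs thus lay later than Hu tags in general in both libraries. They include the 272 window tags of the 12 piled-up mRNAs, of which 0 were found inside the gene named. The middles of these windows lay at 46.9% to 92.7% of the transcript length. The part of these tags in the later position was not tested. In Zfp106 the median FMRP tag lay at nt 3316 and the median Hu tag at nt 7892 of 10540, and in Zfp462 at nt 5234 and nt 9129 of 10496.

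**Figure D4:**
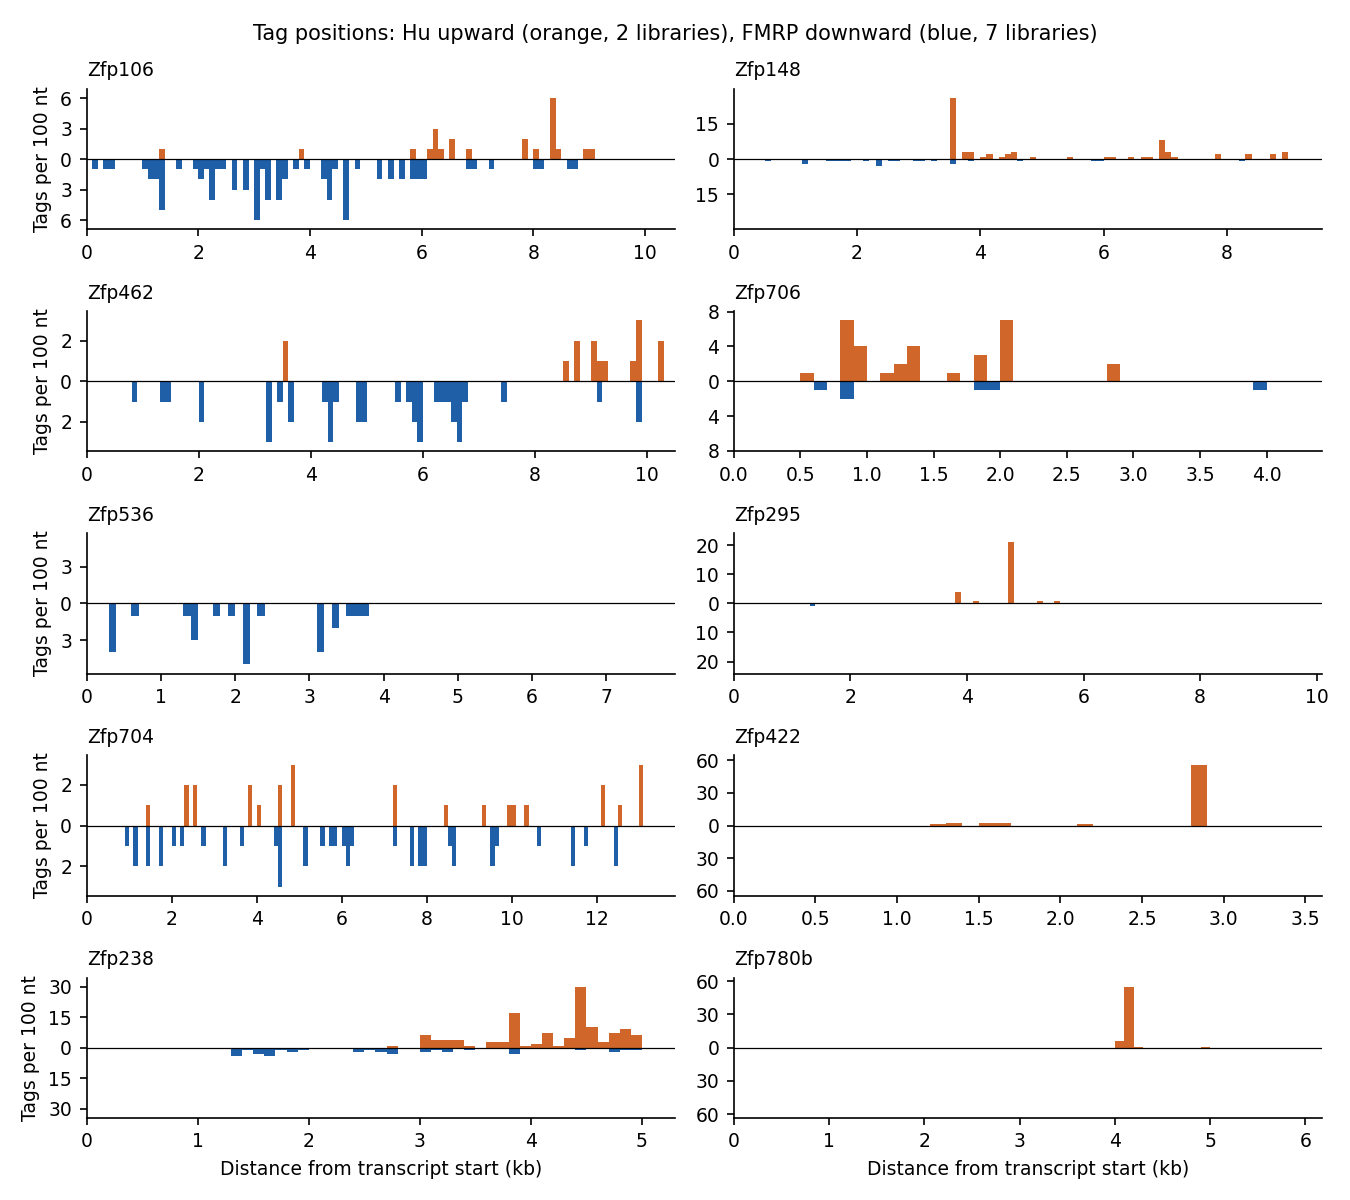
Tags per 100 nt (y axis) along the transcripts of 10 Zfp mRNAs (x axis, kilobases from the transcript start), with the 2 Hu libraries upward and the 7 FMRP libraries downward. Zfp780b, Zfp422 and Zfp295 have most Hu tags in 1 bar, Zfp106 and Zfp462 have FMRP tags ahead of the Hu tags, and in Zfp704 the tags of both are spread over most of the length.

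The authors' table splits FMRP tags into coding sequence and the whole transcript. Of the FMRP tags on the Zfp mRNAs with a known length (95 of 100), 64.5% to 87.0% were coding in the 7 libraries, 79.2% ± 7.5 (SD, n = 7). Tags spread evenly along each transcript would have given 51.1% ± 2.6, and the observed share was the higher in 7 of 7 libraries. For all genes the coding share was 81.1% ± 5.5, with 56.0% ± 1.5 if even, and the Zfp share stood above it in 2 of 7 libraries. Among single mRNAs, 37 of 40 FMRP tags of Zfp462, 60 of 68 of Zfp106, 26 of 27 of Zfp644, 27 of 29 of Zfp294 and 24 of 26 of Zfp536 were coding. In Zfp704, whose coding sequence is 12.3% of its length, 7 of 38 were.

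How much of the transcript is coding went along with which protein held more tags. This split was chosen after the values were seen. The 33 Zfp mRNAs with at least 50% of their length coding took 0.493% and 0.429% of the P11 and P13 FMRP libraries and 0.189% and 0.148% of the Hu libraries, a ratio of 2.79. FMRP stood above Hu in both libraries for 22 of them (66.7%, against 55% of all transcripts with such a coding part) and Hu above FMRP for 3 (9.09%, against 11.2%). The 62 with a smaller coding part took 0.351% and 0.397% of the FMRP libraries and 1.39% and 1.07% of the Hu libraries, which is 3.11-fold lower in FMRP. Of these, FMRP stood above Hu for 6 (9.68%, against 17.2% of all transcripts with a smaller coding part) and Hu above FMRP for 33 (53.2%, against 43.6%). All of the 12 piled-up Zfp mRNAs but Zfp457 fell in this class of 62. The 12 held 314 Hu tags, and for 11 of them Hu stood above FMRP in both libraries. The 3.11-fold and the 53.2% include them, and their part in these values was not tested. The same split over all transcripts with at least 5 tags gave a ratio of 2.83 and a level 1.91-fold lower in FMRP. Over the 46 Zfp mRNAs with at least 10 Illumina tags, Spearman's rho between coding percent and the log2 ratio was 0.39, against 0.60 over 3122 transcripts, in libraries and lysates that all of them share.

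**Figure D5:**
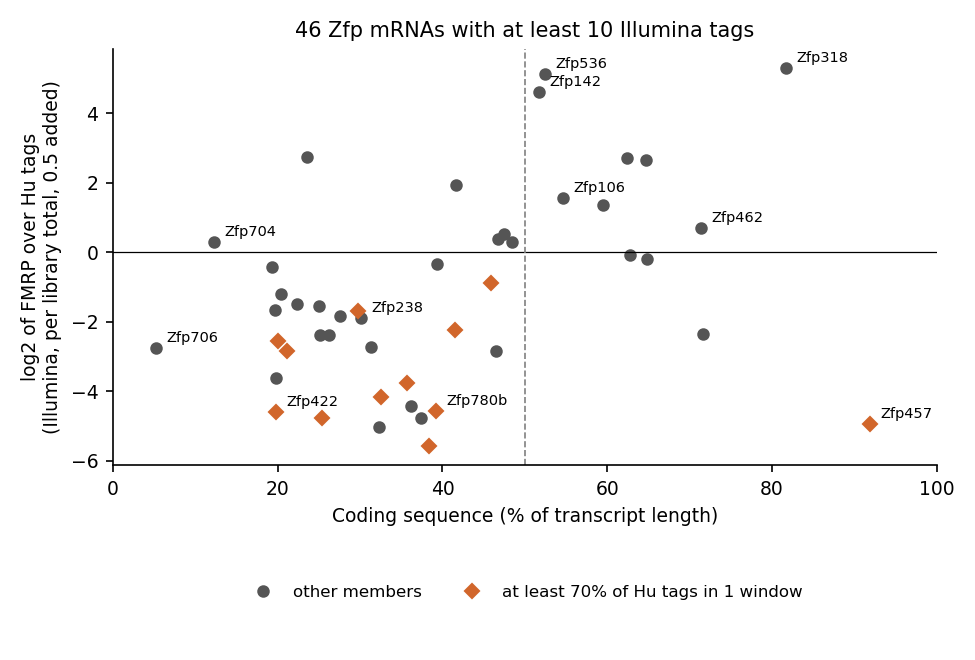
The log2 ratio of FMRP over Hu tags on Illumina, scaled by library totals with 0.5 added to each count (y axis), against the coding percent of the transcript (x axis), for 46 Zfp mRNAs with at least 10 Illumina tags. Orange diamonds have at least 70% of their Hu tags in 1 window, and most mRNAs to the left of the dashed line at 50% lie below 0, while Zfp318, Zfp536 and Zfp142 to its right lie highest.

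Among the FMRP libraries, the authors' counts were used to compare antibodies, ages and protocols. For antibody (polyclonal against monoclonal) and for age (P25 against P14 and P15), both within Protocol 1, 0 of 95 genes tested passed (0%), and no Zfp mRNA was deep enough to be among them. Without the depth filter, 60 Zfp mRNAs were tested and 0 passed by edgeR for either. At an unadjusted p below 0.05 stood 0 for antibody and 2 for age, which were Zfp365 and Zfp598. DESeq2 was run with the depth filter in place, so it tested no Zfp mRNA for antibody or age. For protocol, which goes with platform and age and cannot be told apart from them, 3.95% of 329 genes passed (1.22% higher in Protocol 2 and 2.74% lower). Of the 2 Zfp mRNAs tested 0 passed by edgeR, by DESeq2 or at an unadjusted p below 0.05. Without the depth filter 82 Zfp mRNAs were tested for protocol, 0 passed by edgeR and 5 had an unadjusted p below 0.05. Zfp106 had a log2 fold change of 0.60 ± 0.69 (SE, edgeR adjusted p = 0.601) between Protocol 2 and Protocol 1, and Zfp365 had 0.04 ± 0.81 (0.996).

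The authors' FMRP counts and the transcript tags had similar totals but differed for single Zfp mRNAs. In total the authors counted 828 FMRP tags on the 100 mRNAs, and the transcript lists held 896. Zfp365, a neuronal protein that binds Disc1, had 54 FMRP tags in the authors' table, the second most, but 3 in the transcript lists. Its authors' counts were 0, 3 and 6 in the monoclonal libraries at P14, P15 and P25, 1 and 6 in the polyclonal libraries at P14 and P25, and 5 and 33 at P11 and P13. In the genomic lists, the bounds of Zfp365 held 54 FMRP tags and 69 Hu tags, against 9 Hu tags in the transcript lists. Tested on genomic tags, Zfp365 did not pass between FMRP and Hu, with a log2 fold change of -0.79 ± 0.66 (SE, edgeR adjusted p = 0.301). In the opposite direction, Zfp746 had 15 FMRP tags in the transcript lists and 0 in the authors' table, where its accession is a predicted transcript without lengths.

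Array intensity of the mRNAs, from the authors' table, was known for 96 of the 100 and ranged from 18.8 for Zfp617 to 3720 for Zfp828, with a median of 169. Over these 96, Spearman's rho between intensity and tags was 0.35 for the authors' FMRP counts and -0.09 for Hu tags. Zfp780b, with 63 Hu tags, had an intensity of 43.5, and Zfp106 had 1264.

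Other zinc finger mRNAs and the KRAB corepressors were tested in the same fit, in which the median log2 fold change of FMRP over Hu was -0.17 over all 1015 genes, with 33.7% higher in FMRP and 27.3% higher in Hu. Of 80 other C2H2 factors, 10 were deep enough, 5 were higher in FMRP and 1 was higher in Hu, with a median of 1.80. Hivep2, an enhancer-binding protein, had 104 and 136 FMRP tags against 6 and 16 Hu tags (log2 3.86 ± 0.63 SE, edgeR adjusted p = 0.00211). Its relative Hivep1 stood at 3.82 and the neuroprotective factor Adnp at 3.31, while Sp8 was higher in Hu, at -3.80. Of 17 KRAB corepressors, 5 were tested, 4 were higher in FMRP and 1 was higher in Hu, with a median of 2.83. As with the Zfp mRNAs, a gene can pass the depth filter through the protein where it is high. The counts and medians of both lists thus say nothing of the genes too shallow to test. The chromatin remodellers Chd3, Chd5 and Chd4 stood at 5.24, 3.74 and 2.83, and the heterochromatin protein gene Cbx5 at -2.38. Trim28 itself had 0 tags in the transcript lists of all 9 libraries.

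The families named Zbtb, Zc3h and Zkscan or Zscan each had 1 mRNA deep enough to test, of 27, 17 and 13 with a tag. Zbtb8a was higher in Hu, with 23 and 20 Hu tags against 1 and 0 FMRP tags (log2 -4.87 ± 1.07 SE, edgeR adjusted p = 0.00468). Zc3h7b, whose fingers belong to a kind that binds RNA, was higher in FMRP, with 32 and 14 FMRP tags against 2 and 3 Hu tags (3.59 ± 0.89, 0.00789). Zkscan1 did not pass (0.0074 ± 0.69, 0.996). Summed over each family on Illumina, Zc3h mRNAs had 121 FMRP and 38 Hu tags, and Zbtb mRNAs had 104 and 173.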

How the data were processed

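Per the submitters' processing notes, reads were aligned with Novoalign to mm9. Versions are not given in the sources used here. The authors deposited lists of unique tags on the genome and on RefSeq transcripts for each library, and a gene table with whole-number tag counts for the 7 FMRP libraries, lengths and an exon array intensity deposited by the authors. In the Illumina lists the deposited score beside each tag was not used, nor were the deposited counts of merged reads in the 454 lists. Each line counted as 1 tag. Illumina tags carry random barcodes, by which the deposited reads were collapsed, per the file names and read names.

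Transcript tags were summed by RefSeq accession over 11622 transcripts. Fits used edgeR 4.0.16 in R 4.3.3 (TMM, filterByExpr, quasi-likelihood test, Benjamini-Hochberg at 0.05), checked on simulated data, with DESeq2 1.42.0 as an alternative. FMRP over Hu was fitted on the 4 Illumina libraries, and the other comparisons on the authors' counts. Genomic tags were counted on the gene's strand within mm9 bounds for 92 of the 100 members. Current gene names come from RefSeq (GRCm38.p6). Protein and transcript sequences were not used here, and tags on near-identical zinc finger paralogs may be split by the authors' alignment.

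The members and gene lists were chosen with earlier results of these data known. Named were members called in a comparison, the 10 with most FMRP tags by the authors' counts (with Zfp318 and Zfp532, which tie with Zfp148), the 10 with most Hu tags, and members with 90% of at least 10 tags in 1 window. From related lists, called genes were named, at most 3 per direction. The FMRP and Hu libraries of a lysate are paired by the series text, and their deviations from the group means correlated at 0.161 over 1015 genes. Lists of oligodendrocyte, astrocyte, cerebellar neuron, microglia, endothelium and neuron markers were summed per library. Cerebellar neuron markers took 0.0425% to 0.490% of tags, and endothelium markers 0% to 0.0459%.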

Additional observations from a re-analysis of the deposited data

How the results depend on the processing

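Of the 10 Zfp mRNAs tested between FMRP and Hu, none changed direction in an alternative in which it was tested. The count of called Zfp mRNAs, 8, was 3 with DESeq2's test (Zfp295, Zfp422 and Zfp780b), 3 with genomic tags within gene bounds (Zfp106, Zfp91 and Zfp148, of 7 tested, the last not among the 8) and 1 in a fit of every FMRP library with a term for platform (1 Zfp mRNA, of 202 genes, was tested). Leaving out 1 library gave 2 to 6, namely 5 without P11 FMRP, 6 without P13 FMRP, 2 without P11 Hu and 5 without P13 Hu. In each of these the lone library is assumed to vary like the other group. With the lysate as replicate block it was 7, without Zfp644, and the pairing changed no other call. Without a depth filter it was again 8, but only 3 of these were among the 8 of the filtered test. DESeq2 size factors, library totals and 1 tag per start position gave 8 each, with 8, 7 and 8 shared. Library totals and DESeq2 size factors moved the median log2 of all genes from -0.17 to -0.43 and -0.0032. For antibody, age and protocol the count was 0 in every alternative, which for antibody includes age as replicate block over P14 and P25 (0). These zeros rest on 0 Zfp mRNAs tested for antibody and age except where the filter was dropped.

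With a window of 200 nt, 8 Zfp mRNAs were single-window in place of 5, and with 50 nt or 1 tag per start position 5 were. A minimum of 10 tags would have kept 60 Zfp mRNAs, and a minimum of 1 tag 211. The cause of these changes was not tested, apart from the fewer genes or samples that an alternative leaves. Depth is a limit, since 90 of the 100 Zfp mRNAs were too shallow to test.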
